A study of Mus musculus with 2 samples.

Results

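Slc7a2, Nos2, Ass1, Odc1 and Sat1 are 5 genes of arginine and polyamine metabolism. They were chosen by name, and each has 1 of the 27031 gene columns of the molecule table. The cells came from MC38 colon cancer tumors grown under the skin of female C57BL/6 mice aged 6 to 8 weeks, and were sorted as live CD45+ leukocytes. Mice received vehicle or telmisartan, an angiotensin receptor blocker, at 5 mg/kg by stomach tube every day from implantation until harvest on day 13. The sorted cells of 5 mice were pooled per group and marked with Sample Tag 1 (control) or Sample Tag 2 (telmisartan). Both pools were captured together on 1 BD Rhapsody cartridge for whole transcriptome sequencing. After quality limits and removal of likely doublets, 4535 control cells with 41591125 unique molecules (UMIs) and 4434 telmisartan cells with 30921742 UMIs remained, with medians of 8689 and 6357.5 UMIs per cell.

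Arginine enters macrophages through cationic amino acid transporters. Inducible nitric oxide synthase oxidises it to nitric oxide and citrulline, while ornithine feeds polyamine synthesis, which growing cells need. The synthase is best known as a product of macrophages exposed to interferon-gamma and bacterial signals.

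Because each group is 1 pool of mice, the groups were compared without any test between animals. Levels are given as UMIs per 1000000, out of all UMIs of the same cells, and differences as log2 ratios of telmisartan over control. Their 95% intervals are exact and cover counting error alone, not the variation between mice or between cells. They treat each UMI as a separate draw, although the UMIs of a gene can lie in few cells. Values separated by counting error may therefore not be separated beyond the spread between cells or mice. Without scaling, UMIs per cell had a median log2 ratio over all genes of -0.45 in macrophage-like and -0.23 in dendritic-like cells, so groups are compared after scaling. Levels are compared for each gene across cells and groups, not between genes. Most cells, 8052, were macrophage-like, with 660 dendritic-like, 186 T-like and 71 neutrophil-like cells. The macrophage-like cells, 4051 control and 4001 telmisartan, formed 6 states when clustered without these genes and without the listed genes of their pathway.

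The states are called by number. State 1 (2637 cells) was led by Dcstamp, Lilra6 and Cd24a, state 2 (1498 cells) by Apoe, Atp6v0d2 and Folr2, and state 3 (1228 cells) by the interferon-induced Ifit3 and Rsad2. State 4 (1048 cells) was led by the mitotic genes Top2a and Mki67, state 5 (993 cells) by Serpinb2, Il6 and Hmox1, and state 6 (648 cells) by Serpina3g, Iigp1 and Cxcl9. State 3 had few UMIs per cell, with a median of 2531.5 and a median ratio of 0.365 to the cell's own group median. That ratio was 0.278 in control and 0.407 in telmisartan cells. The median mitochondrial share of state 3, 11.4%, was the highest of the 6 states. A higher resolution gave 9 finer states. Of state 3, 73.4% of control and 73.5% of telmisartan cells fell in finer state 4, led by Ly6c2 and Plac8. Finer state 9, led by Ifit3 and Rsad2, held 22.3% and 15.7%. The levels of state 3 are thus not those of cells high in interferon-induced genes alone. State 5 had a median of 4053 UMIs. Nos2 was among the 10 leading genes of state 5 although it was kept out of the clustering.

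Slc7a2 (chr8:40862396-40922308, plus strand, GRCm38) encodes the cationic amino acid transporter that brings arginine into macrophages. In macrophage-like cells its level was 260.3 in control and 180.3 in telmisartan cells, a log2 ratio of -0.53 (95% interval -0.58 to -0.48). The level was thus lower with telmisartan, by less than 1.5-fold. State 6 held the highest level, 374 in control and 274 in telmisartan cells, followed in control cells by state 1 at 346 and state 5 at 277. States 3, 2 and 4 followed at 178, 161 and 143. In telmisartan cells state 5, at 273, was not separated from state 6 by counting error, and state 1 came next at 213. States 2 and 3, which counting error did not separate in either group, then stood at 144 and 139, and state 4 was lowest at 116. The interval of the log2 ratio lay below 0 in 5 of 6 states, from -0.70 in state 1 to -0.16 in state 2, and included 0 in state 5 at -0.02 (-0.18 to 0.13). Without the cell of most Slc7a2 UMIs in each group, state 2 was at -0.10 (-0.23 to 0.03). In the finer states 4 of 9 intervals lay below 0 and 5 included it, with log2 ratios from -0.45 to -0.01. A long noncoding gene, Gm26584, lies across from Slc7a2 on the other strand and had 3 UMIs in macrophage-like cells; the sources do not say whether reads were assigned by strand.

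Nos2 (chr11:78920787-78960254, plus strand) encodes inducible nitric oxide synthase. In macrophage-like cells its level was 297 in control and 284 in telmisartan cells, a log2 ratio of -0.07 (-0.11 to -0.02) whose sign was reversed with the mean of UMIs per 10000 over cells (0.10 relative to all genes) or with 9 finer states weighted alike (0.12). The class as a whole thus showed no clear difference. State 5 was far above the others at 1323 in control and 1385 in telmisartan cells, and state 6, led by Cxcl9, was next at 554 and 681. In control cells states 1 and 3 followed at 284 and 279.9, not separated by counting error, and states 2 and 4 at 95.5 and 75.9. The order differed in telmisartan cells, where state 3 at 301 came before states 2 and 1 at 122 and 121, which were not separated, and state 4 at 99.6. State 1 was therefore the state where the groups differed most. Its log2 ratio was -1.24 (-1.33 to -1.14), from 4129 and 1141 UMIs. In states 2, 4 and 6 the level was instead higher with telmisartan, with log2 ratios of 0.35, 0.39 and 0.30. For states 3 and 5 the interval included 0, with ratios of 0.11 and 0.07. State 5 held 5.90% of the UMIs of control macrophage-like cells and 26.3% of their Nos2 UMIs. In telmisartan cells it held 9.56% of UMIs and 46.6% of Nos2 UMIs.

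**Figure D1:**
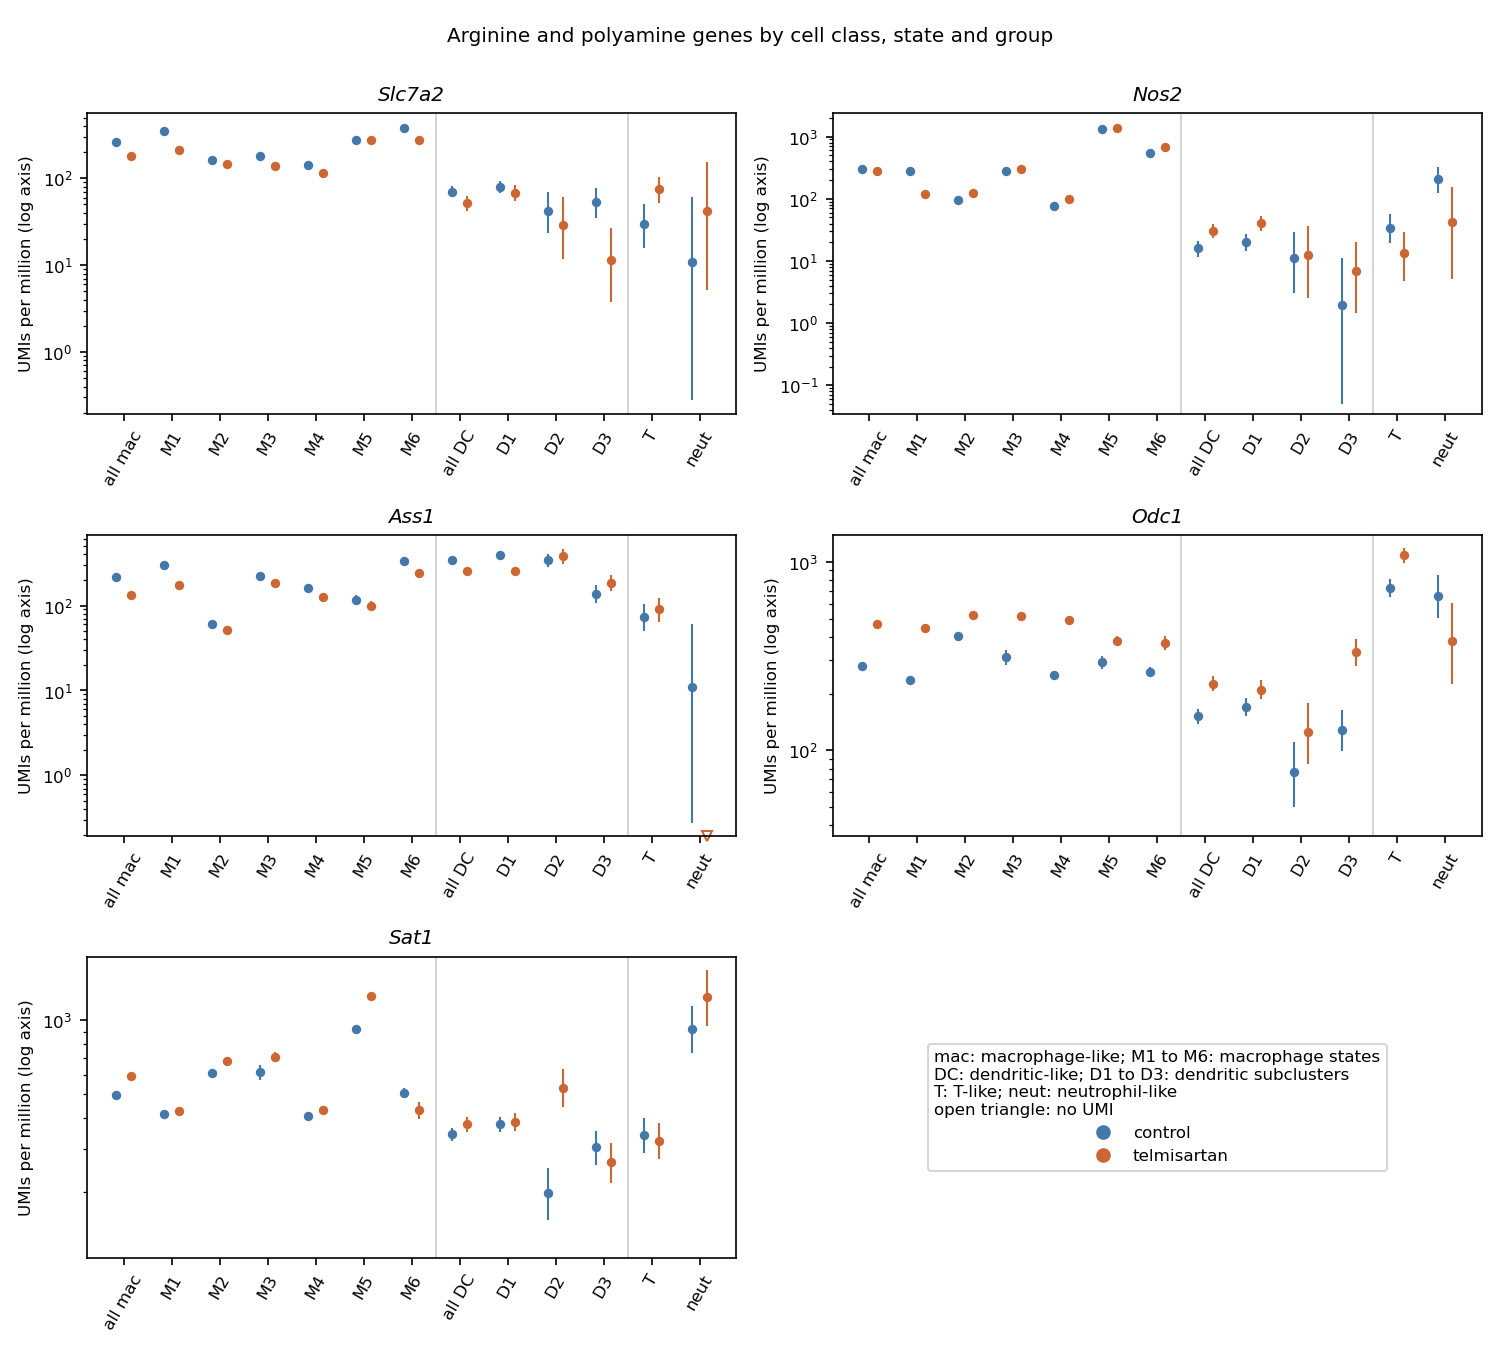
Level of each gene in UMIs per 1000000 (log axis) in macrophage-like cells, their 6 states (M1 to M6), dendritic-like cells, their 3 subclusters (D1 to D3), T-like and neutrophil-like cells, with control in blue and telmisartan in orange. Points are summed counts of 1 pool per group, bars are 95% counting intervals, and Nos2 is highest in M5 at 1323 and 1385.

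The low Nos2 level of telmisartan cells in state 1 depended on how finely the macrophage-like cells were divided. At a higher resolution they formed 9 finer states, and the state 1 cells of each group fell into them in different shares. Of the control cells of state 1, 57.5% fell in finer state 1, led by Cxcl9 and Serpina3g, 23.1% in finer state 7, led by Ereg and Cxcl3, and 15.98% in finer state 3, led by Nr4a3 and Il1r2. Of its telmisartan cells, 14.5%, 4.03% and 79.5% fell in these. Finer states 1 and 7 were mostly control cells (79.6% and 80.7%), and finer state 3 mostly telmisartan cells (81.0%). With 1 pool per group, a cluster made mostly of 1 group may reflect that pool and not a cell type. Nos2 stood at 266 in control and 388 in telmisartan cells in finer state 1, at 109 and 99.5 in finer state 3 and at 771 and 699 in finer state 7. Over all 9 finer states the log2 ratio of Nos2 ran from -0.19 to 0.54, and 3 intervals lay above 0, 1 below it (finer state 7, -0.14 (-0.26 to -0.02)) and 5 included it.

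Ass1 (chr2:31470207-31520672, plus strand) encodes argininosuccinate synthase, which starts the rebuilding of arginine from citrulline. In macrophage-like cells its level was 217 in control and 133 in telmisartan cells. It was 1.63-fold lower with telmisartan, a log2 ratio of -0.70 (-0.76 to -0.65). State 6 was highest, at 335 in control and 239 in telmisartan cells. State 1 came next in control cells at 302, then state 3 at 223, while in telmisartan cells states 3 and 1 were not separated, at 183 and 173. State 4 was at 159 and 127, state 5 at 117 and 99.9 and state 2 lowest at 60.4 and 51.1. The interval of the log2 ratio lay below 0 in 5 of 6 states, from -0.80 in state 1 to -0.24 in state 2, and included 0 in state 5 (-0.23 (-0.48 to 0.02)). In the finer states 6 of 9 intervals lay below 0 and 3 included it. The lowest was -0.95 in finer state 7, at 389 in control and 201 in telmisartan cells, and the other 8 lay between -0.31 and 0.04.

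Odc1 (chr12:17544794-17551505, plus strand) encodes ornithine decarboxylase, which makes putrescine, the first polyamine, from ornithine. Its level in macrophage-like cells was 278 in control and 470.2 in telmisartan cells, from 10619 and 13343 UMIs. It was 1.69-fold higher with telmisartan, a log2 ratio of 0.76 (0.72 to 0.79). Among single cells the median was 1.04 UMIs per 10000 in control and 2.20 in telmisartan cells, and the 90th percentile 7.76 and 12.7. The difference thus lay in the middle of the distribution as well as at its top. State 2 was highest in control cells at 402, followed by states 3 and 5 at 311 and 293 without separation. States 6 and 4 at 261 and 251 were not separated either, and state 1 was lowest at 237. In telmisartan cells states 2, 3 and 4 stood at 524, 514 and 494, with no separation between neighbors. State 1 followed at 448, then states 5 and 6 at 381 and 370.5, again not separated. Telmisartan cells were higher in each of the 6 states, by log2 ratios from 0.38 in states 2 and 5 to 0.97 in state 4. Of the 9 finer states, 8 had an interval above 0, up to 1.09 in finer states 5 and 6. In finer state 7 the levels were 329 and 349, with a log2 ratio of 0.09 (-0.08 to 0.26).

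Sat1 (chrX:155213132-155216449, minus strand) encodes the acetyltransferase that marks spermidine and spermine for breakdown or export. In macrophage-like cells its level was 497 in control and 594 in telmisartan cells, a log2 ratio of 0.26 (0.23 to 0.29). It was higher with telmisartan by less than 1.5-fold. State 5 was highest, at 919 in control and 1253 in telmisartan cells, with the largest log2 ratio among the states, 0.45. States 3 and 2 came next without separation in either group, at 614 and 712 for state 3 and 613 and 683 for state 2. In control cells state 6 followed at 507, then states 1 and 4 at 416 and 406 without separation. In telmisartan cells states 4, 6 and 1 were lowest, at 431, 430.3 and 426, with no separation between neighbors. State 6 was the exception in direction, being lower with telmisartan at -0.24 (-0.36 to -0.11). Outside it, states 2, 3 and 4 had log2 ratios of 0.16, 0.21 and 0.08, and in state 1 the interval included 0. So did that of state 4 without the cell of most Sat1 UMIs in each group. Of the finer states, 5 of 9 had an interval above 0, none below it and 4 included it. Finer state 1, which held 98.1% of control and 93.8% of telmisartan cells of state 6, had -0.01 (-0.10 to 0.08). State 6 cells made up 35.1% of its control and 48.8% of its telmisartan cells, and state 1 cells 64.1% and 50%. The finer states thus give no separate value for state 6.

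Set against all other macrophage-like cells of the same group, state 5 had a log2 ratio of 2.51 in control and 3.05 in telmisartan cells for Nos2 (2.72 with both groups together). For Sat1 it had 0.97 and 1.26. State 6 had 0.74 in control and 0.91 in telmisartan cells for Ass1 and 0.61 and 0.65 for Slc7a2, and state 2 had 0.67 and 0.21 for Odc1. Among the finer states, Nos2 and Sat1 were again highest in a state led by Serpinb2 in both groups. Slc7a2 was highest in finer state 7, led by Ereg and Cxcl3, at 486 in control and 422 in telmisartan cells. For Ass1 and Odc1 the highest finer state differed between groups. Ass1 was highest in finer state 7 in control cells and in finer state 1 in telmisartan cells, at 235 against 201 in finer state 7. Odc1 was highest in finer state 3 in control cells, at 437, and in finer state 8 in telmisartan cells, at 555 against 540.0 in finer state 3. In both of these telmisartan pairs the counting intervals overlapped. With both groups together, at a lower resolution or without doublet removal, the highest state for Nos2 and Sat1 was led by Rsad2 and Ifit3. The lower resolution gave 4 states. Among the 6 states, state 3, led by the same genes, was at 294 for Nos2 and 679 for Sat1 with both groups together. State 5 was at 1357 and 1102. Whether the Rsad2-led states of these settings also held cells of state 5 was not tested. At the lower resolution that for Slc7a2 and Ass1 was led by Dcstamp, Ly6i and Lilra6, with 0.94 and 1.38.

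Of the 5 genes in macrophage-like cells, 1 was at least 1.5-fold higher with telmisartan (Odc1) and 1 at least 1.5-fold lower (Ass1). Over all 11074 genes with at least 100 UMIs, 4.78% were that much higher and 2.24% that much lower. The median log2 ratio of the 5 genes was -0.07, the value of Nos2, whose sign was reversed under 2 settings, and that of all genes -0.05. Ass1 fell short of 1.5-fold under 3 of 14 alternative settings and Odc1 under 1 (-0.33 and 0.53 with the 9 finer states weighted alike). Read at 1 depth, with each cell thinned to 1000 UMIs, Odc1 was seen in 19% of control and 30.6% of telmisartan macrophage-like cells. Ass1 was seen in 16.8% and 10.5%, and Slc7a2 in 17.5% and 13.4%. For Sat1 the shares were 34.2% and 38.0%, and for Nos2 14.0% and 14.5%. The shares thus differed in the direction of the levels for each gene but Nos2, where they were nearly equal.

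**Figure D2:**
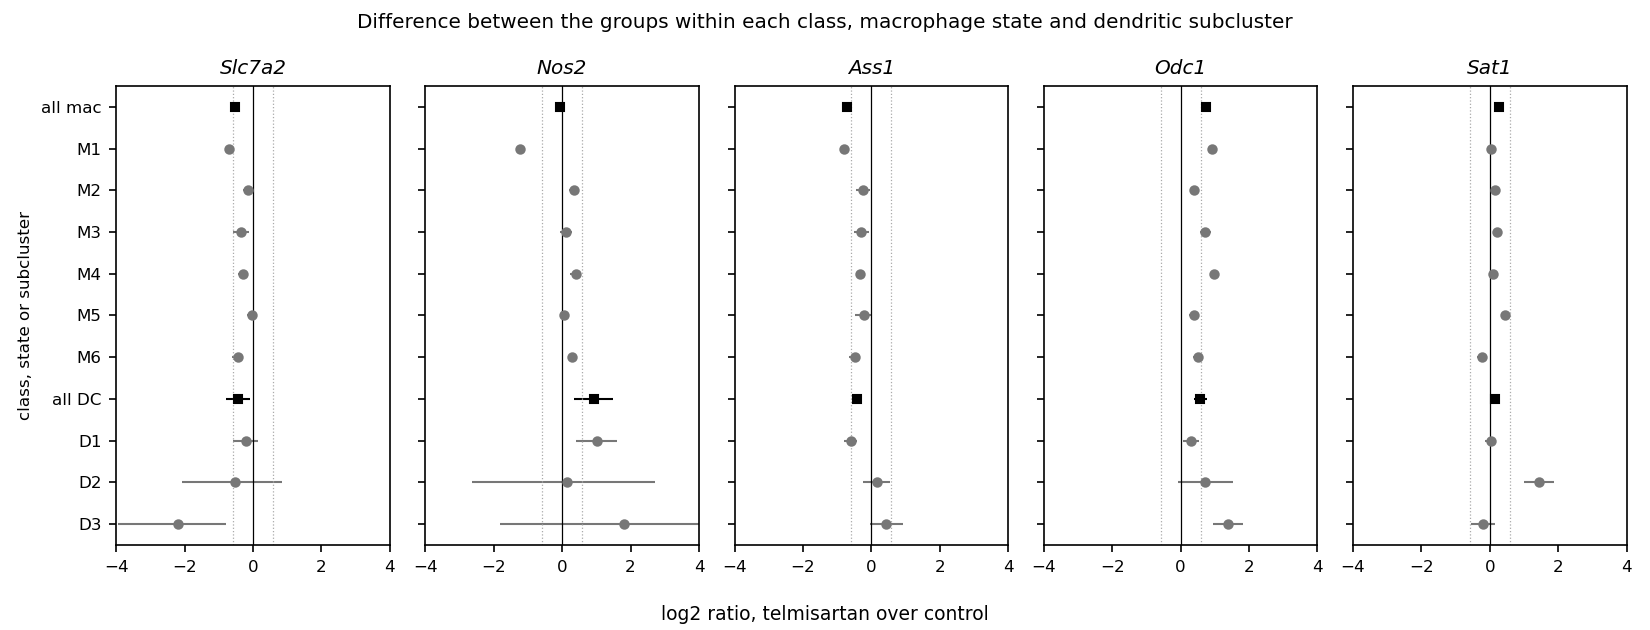
Log2 ratio of telmisartan over control (horizontal axis) for each gene in all macrophage-like cells, states M1 to M6, all dendritic-like cells and subclusters D1 to D3 (vertical axis), with 95% counting intervals that may run past the axis and dotted lines at 1.5-fold. Odc1 lies above 0 in each of the 6 states, and Nos2 in M1 lies at -1.24 while 3 other states lie above 0; the signs of the Nos2 ratios in all macrophage-like and in all dendritic-like cells change with the processing.

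In dendritic-like cells, 365 control and 295 telmisartan, levels were tracked over 3 subclusters. Subcluster 1 (468 cells) was led by Sirpb1c and Slc4a11, subcluster 2 (104 cells) by Fscn1 and Il12b, and subcluster 3 (88 cells) by Top2a and Mki67. These genes lead over the other dendritic-like cells and do not name a cell type. In the clustering for classes, the dendritic-like clusters had 459, 109 and 92 cells. Their leading genes included Cd209a, Fscn1 and Xcr1 with Clec9a, in that order. The cluster of 92 cells and subcluster 3 both had a median of 9548 UMIs, but their overlap was not counted. Each of the 5 genes had at least 100 UMIs there, and 1 of them, Nos2, was at least 1.5-fold higher with telmisartan and none at least 1.5-fold lower. These counts depend on the settings, as Nos2 was reversed (-0.16) without doublet removal and fell short of 1.5-fold (0.52) without the cell of most UMIs in each group, and Slc7a2 was past 1.5-fold lower under 2 of 11 settings. Over 5823 genes, 3.68% were that much higher and 3.37% that much lower, with a median log2 ratio of -0.02.

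Ass1 was the only one of the 5 genes with its highest class level in dendritic-like cells, 342 in control and 256 in telmisartan cells, a log2 ratio of -0.42 (-0.57 to -0.26). It was lower with telmisartan in subcluster 1, at 391 and 257 (-0.61 (-0.79 to -0.43)). In subcluster 2 it stood at 342 and 380.1 and in subcluster 3 at 138 and 186, with intervals that included 0. Subcluster 3 was lowest in both groups, and subclusters 1 and 2 were separated in telmisartan cells alone. At 1000 UMIs per cell Ass1 was seen in 23.9% of control and 18.2% of telmisartan dendritic-like cells, above the 7.35% and 5.77% of T-like cells. Odc1 was at 151 in control and 226 in telmisartan cells in the class, a log2 ratio of 0.58 (0.39 to 0.77). It was just under 1.5-fold, and past it under 7 of 11 alternative settings, with values from 0.52 to 0.82. Within subclusters it was 169.6 and 210.2 in subcluster 1, 76.3 and 125 in subcluster 2 and 128 and 332 in subcluster 3. Telmisartan values were higher in each of the 3, most in subcluster 3 (1.37 (0.94 to 1.82)), and in subcluster 2 the interval included 0. The order therefore differed between groups, with subcluster 1 first in control and subcluster 3 first in telmisartan cells. Sat1 was at 343 in control and 377 in telmisartan cells in the class, a log2 ratio of 0.14 (0.00 to 0.27), or 0.12 (-0.02 to 0.26) without the cell of most Sat1 UMIs in each group. Its subcluster 2 differed from the others, with 70 control and 127 telmisartan UMIs and levels of 198 and 530.4, a log2 ratio of 1.42 (0.99 to 1.87), or 1.27 (0.79 to 1.75) without such cells. Subclusters 1 and 3 stood at 377 and 386 and at 304 and 265, with intervals that included 0.

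Nos2 and Slc7a2 were low in dendritic-like cells. At 1000 UMIs per cell, 0.824% of control and 3.09% of telmisartan dendritic-like cells had a UMI of Nos2, against 2.94% and 3.85% of T-like cells. Without thinning the shares were 9.32% and 8.14% at medians of 7670 and 6360 UMIs, and 9.72% and 5.26% in T-like cells at 3912 and 2960.5. At 2000 UMIs per cell they were 3.41% and 2.51%, against 3.77% and 2.47%. Counting error did not separate the shares of the 2 classes at either depth, so the Nos2 shares of dendritic-like cells are not clear of background. The T-like shares rest on 2 and 4 cells at 1000 UMIs. The Nos2 level in dendritic-like cells was 16.04 in control and 30.3 in telmisartan cells, a log2 ratio of 0.92 (0.35 to 1.5) from 47 and 62 UMIs, which was reversed (-0.16) without doublet removal. T-like cells were at 34.3 and 13.2, with the control level above and the telmisartan level not separated from that of dendritic-like cells. The control level of T-like cells rests on few cells, as 1 of them held 7 of the 15 UMIs. Whether it stays above without that cell was not tested. A single telmisartan dendritic-like cell held 20 of the 62 UMIs. With the cell of most Nos2 UMIs left out of each group the ratio was 0.52 (-0.13 to 1.18), so the difference was not detectable at this depth. Nearly all lay in subcluster 1, with 42 and 56 UMIs and levels of 20.3 and 40.7, against 4 and 3 UMIs in subcluster 2 and 1 and 3 in subcluster 3.

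Slc7a2 was at 70.3 in control and 51.8 in telmisartan cells (-0.44 (-0.79 to -0.09)) in dendritic-like cells. The ratio ran from -1.21 to -0.05 over 11 alternative settings, with 2 of them past 1.5-fold, and without doublet removal the levels were 69.6 and 67.0. Its subclusters stood at 79.2 and 68.4 for 1, 42.4 and 29.2 for 2 and 53.3 and 11.6 for 3, the last from 27 and 5 UMIs, of which 21 and 2 lay in 1 cell per group. In subcluster 2, 1 control cell held 12 of 15 UMIs. At 1000 UMIs per cell its shares were 6.04% and 2.75%, against 2.94% and 3.85% of T-like cells. Without thinning they were 18.4% and 11.2%, against 9.72% and 5.26%. The control level was above the 29.7 of T-like cells, with intervals that did not overlap. In telmisartan cells the comparison rests on 1 T-like cell, which held 23 of 34 UMIs.

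The smaller classes, 72 and 114 T-like and 47 and 24 neutrophil-like cells in control and telmisartan, set 2 of the genes in another order. For Odc1 the T-like cells were highest, at 729 in control and 1085 in telmisartan cells, a log2 ratio of 0.57 (0.37 to 0.78). In control cells neutrophil-like cells at 659 were not separated from them, and macrophage-like and dendritic-like cells followed. In telmisartan cells neutrophil-like cells, at 381, were separated neither from macrophage-like nor from dendritic-like cells. Their log2 ratio for Odc1 went the other way, at -0.79 (-1.64 to -0.01) from 60 and 18 UMIs. These UMIs lay in 15 and 6 cells, with 16 and 8 of them in 1 cell per group. Without such cells the ratio was -1.18 (-2.34 to -0.17). At 1000 UMIs per cell Odc1 was seen in 23.4% of control and 12.5% of telmisartan neutrophil-like cells, with overlapping intervals. T cells are known to make Odc1 and Sat1, so their shares are no background for these. Sat1 was highest in neutrophil-like cells, at 922 in control and 1248 in telmisartan cells (0.44 (-0.07 to 0.93)). T-like cells were at 340.4 and 324 for Sat1, not separated from dendritic-like cells in either group.

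Nos2, Slc7a2 and Ass1 rested on few UMIs in these classes. Nos2 was 209 in control and 42.3 in telmisartan cells in neutrophil-like cells (19 and 2 UMIs) and 34.3 and 13.2 in T-like cells (15 and 6 UMIs). Slc7a2 was 29.7 and 74.8 in T-like cells, and it had 1 and 2 UMIs in neutrophil-like cells. Ass1 was 73.1 and 90.3 in T-like cells and had 1 and 0 UMIs in neutrophil-like cells. Macrophage-like cells were highest for Slc7a2 in both groups. For Nos2 they were highest too, but in control cells they were not separated from neutrophil-like cells. Below them, telmisartan dendritic-like, T-like and neutrophil-like cells were in no clear order for Nos2 or Slc7a2.

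The other genes of the pathway were described from lists of 51 genes in 9 groups, of which 38 had at least 100 UMIs in macrophage-like cells. At 1.5-fold 2 were higher with telmisartan and 0 lower, and their median log2 ratio was -0.02. These shares are near those of all genes. The first was Gch1, which starts the synthesis of tetrahydrobiopterin, a cofactor of nitric oxide synthase, at 50.6 in control and 86.5 in telmisartan cells (0.78, 0.69 to 0.86). The other was Ddah2, of a family known for breaking down methylated arginine, at 6.27 and 10.5 (0.74, 0.49 to 0.99). In 5 of 6 states the interval of Gch1 lay above 0.

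The most abundant gene of each list adds to this. Slc3a2, the heavy chain of amino acid transporters that exchange arginine, was at 321 in control and 421 in telmisartan cells (0.39, 0.35 to 0.43), and higher in each of the 6 states. Asl, which completes the rebuilding of arginine after Ass1, was at 46.4 and 51.6 (0.15, 0.05 to 0.25). It thus did not share the lower level of Ass1. Oat, which takes ornithine toward glutamate and proline, was at 57.0 and 60.0 (0.07, -0.02 to 0.17). Mat2a, which makes S-adenosylmethionine, was at 68.0 and 82.8 (0.28, 0.20 to 0.37). Neither reached 1.5-fold. Smox, which oxidises spermine, was at 287 and 391 (0.44, 0.41 to 0.48), and Oaz1, the antizyme that directs ornithine decarboxylase to breakdown, at 465 and 472 (0.02, -0.01 to 0.05). Smox was thus higher along with Sat1, and Oaz1 was level while Odc1 was higher. The lists did not all follow their most abundant gene. Counting any ratio above 0 as higher, 4 antizymes and antizyme inhibitors were higher and 0 lower (median log2 ratio 0.21). For polyamine breakdown and transport the counts were 2 and 2, and for polyamine synthesis 2 and 3. For nitric oxide synthases and cofactor synthesis they were 1 and 3. Eif5a, the protein that carries the spermidine-derived residue hypusine, was at 1064 and 786 (-0.44, -0.46 to -0.41). Gatm, which uses arginine for creatine synthesis, was at 355 and 246 (-0.53, -0.57 to -0.49). Eif5a was lower in each of the 6 states and Gatm in 5 of them.

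In dendritic-like cells 21 of the listed genes had 100 UMIs. Gch1 (52.5 in control and 81.6 in telmisartan cells) and the antizyme inhibitor Azin1 (70.3 and 108) were at least 1.5-fold higher. Gatm (243 and 160) was at least 1.5-fold lower, and the median log2 ratio of the list was 0.15, against 3.68% higher, 3.37% lower and a median of -0.02 over all 5823 genes. Gch1 and Gatm thus passed or neared 1.5-fold in the same direction in both classes. Eif5a was at 884 and 922 in dendritic-like cells (0.06, -0.03 to 0.15), unlike in macrophage-like cells.

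Responses of macrophages to hypoxia and to cytokines were described from 3 more lists. A list of 12 hypoxia genes summed to 11257 UMIs per 1000000 in state 5, and to 5299 in state 1, the next of the 6 states. State 5 was thus highest for hypoxia genes as well as for Nos2 and Sat1. Between groups, 1 hypoxia gene of 12, Adm (1.57 in control and 2.82 in telmisartan cells), was at least 1.5-fold higher in macrophage-like cells and 0 lower, with a median log2 ratio of 0.14. The 10 genes induced by lipopolysaccharide and interferon-gamma summed highest in state 6 at 11284, and then in state 5 at 10222. Of these 9 had at least 100 UMIs, with a median log2 ratio of 0.30. At least 1.5-fold higher with telmisartan were 3, Il6 (18.7 in control and 41.0 in telmisartan cells), Tnf (119.6 and 183) and Irf1 (157 and 239), and 1 was lower, Cxcl9 (874 and 398). Of 10 genes induced by interleukin-4, 0 were higher and 5 lower (Retnla, Ccl17, Ccl24, Mgl2 and Pdcd1lg2), with a median log2 ratio of -0.92. Over all genes 4.78% were that much higher and 2.24% that much lower, with a median of -0.05.

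Genes with the most similar pattern were sought among 8575 genes, over 18 points (6 states and 3 dendritic subclusters in each group) that share 1 capture and differ in depth. For Nos2 they were Cstb, A930007I19Rik, Inhba, Rnf149 and Asph, with Pearson correlations from 0.96 to 0.94. Odc1 was most like Slc35e4, Rab5if, 1700017B05Rik, Jdp2 and Htra4 (0.92 to 0.90), and Sat1 most like Rsbn1, Mitf, Card19, Fbxo30 and Wsb1 (0.92 to 0.90). Among the 5 genes, Nos2 and Slc7a2 had a correlation of 0.87. Ass1 was negatively correlated with each of the other 4, most with Odc1 (-0.61). The contrast between macrophage-like and dendritic-like points enters each of these values.

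Markers of other cell types were measured in macrophage-like cells of both groups. The 13 T cell markers, all detected, summed to 16.5 in control and 18.9 in telmisartan cells, with Skap1 the most abundant (2.44 and 3.03). The 7 neutrophil markers, all detected, summed to 90.5 and 104, with Mmp8 the most abundant (56.8 and 72.8) and 3 of the 7 higher. The 11 dendritic markers summed to 34.5 and 32.9, with Ccl22 the most abundant. The 6 monocyte markers summed to 1369 in control and 1532 in telmisartan cells, with Ccr2 the most abundant (608 and 474), and 4 plasmacytoid dendritic markers to 208 and 267, with Tcf4 the most abundant. The 5 fibroblast markers, all detected, were higher with telmisartan (7.89 and 14.1, with Col1a1 the most abundant), and 5 epithelial or tumor markers lower (61.2 and 44.1, nearly all Cdh1). The 4 red cell markers were lower (4.17 and 0.811, with Hba-a1 the most abundant). Their part in the results was not tested. In dendritic-like cells 13 macrophage markers summed to 3879 in control and 3104 in telmisartan cells, with Lyz2 the most abundant (1600.4 and 1228), 6 monocyte markers to 509 and 800.3, with Ccr2 the most abundant (296 and 271) and 3 of the 6 higher, and 13 T cell markers to 13 and 31.3, with Skap1 the most abundant, with Cd4 at 0. The part of macrophage RNA in the lower Slc7a2 and Ass1 levels of telmisartan dendritic-like cells was not tested.

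**Figure D3:**
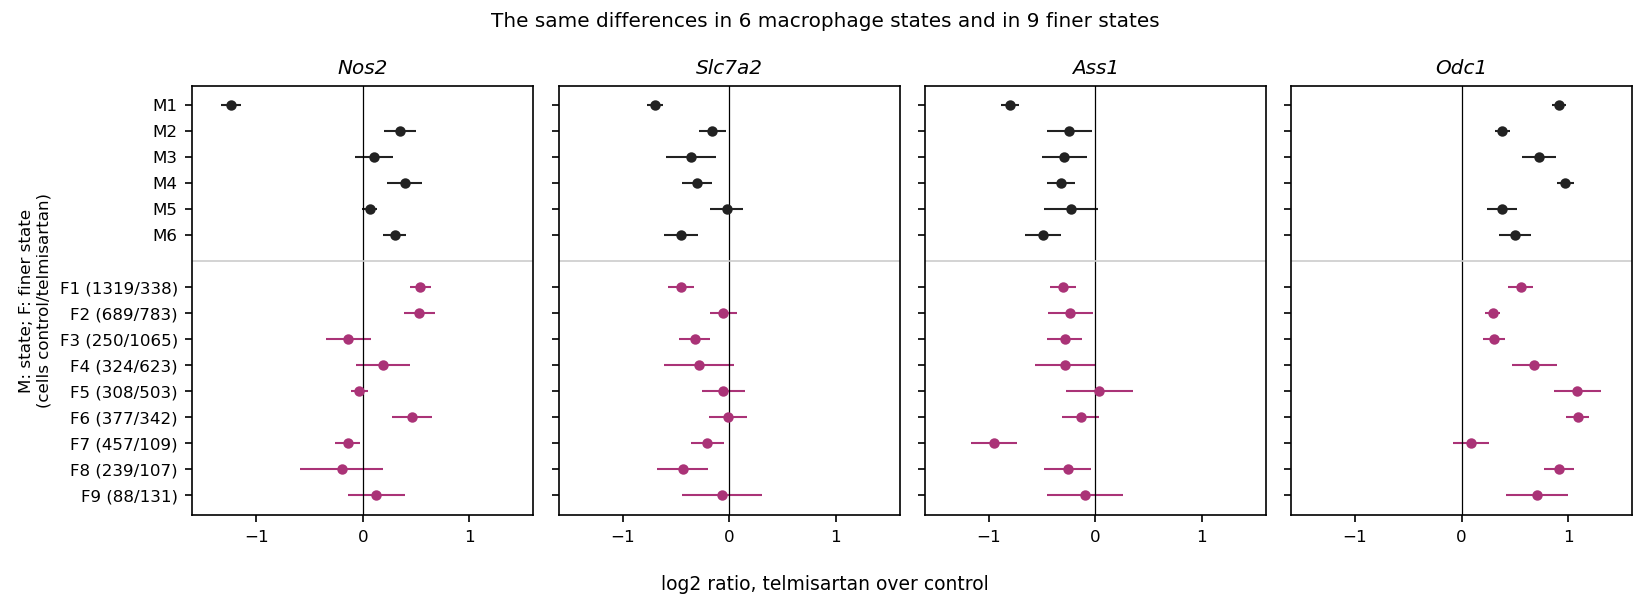
Log2 ratio of telmisartan over control with 95% counting intervals (horizontal axis) for Nos2, Slc7a2, Ass1 and Odc1 in the 6 macrophage states (M, black) and in 9 finer states (F, purple, with control and telmisartan cells). Nos2 is at -1.24 in M1 and between -0.19 and 0.54 in the finer states, while Odc1 is above 0 in each state shown, with an interval that includes 0 in F7.

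Promoter windows of 300 bases, 250 before and 50 after the transcription start, were taken from RefSeq (GRCm38.p6) for 3 of the 5 genes, Ass1, Odc1 and Sat1. Promoters of Slc7a2 and Nos2 were not analysed here. Ass1 and Odc1 passed 1.5-fold in opposite directions in macrophage-like cells, so the bases before each gene's annotated start are printed, 5′ to 3′ on the plus strand (chr2:31470020-31470206 and chr12:17544623-17544793).
Ass1: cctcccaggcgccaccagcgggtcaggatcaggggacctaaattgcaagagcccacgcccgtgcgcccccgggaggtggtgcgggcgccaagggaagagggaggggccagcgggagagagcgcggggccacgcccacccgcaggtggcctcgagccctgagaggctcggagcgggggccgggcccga
Odc1: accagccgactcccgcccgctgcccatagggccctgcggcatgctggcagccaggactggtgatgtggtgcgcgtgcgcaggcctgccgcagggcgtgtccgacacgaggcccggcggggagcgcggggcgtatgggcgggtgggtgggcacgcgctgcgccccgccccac
Among 32851 windows the median share of G and C was 52.7%, while it was 74.0% for Ass1, 78.0% for Odc1 and 60.3% for Sat1. On both strands 7 motifs were searched. They were the hypoxia response core ACGTG (in 19.6% of all windows), the E-box CACGTG (7.15%, which holds the former), the gamma-activated site TTCNNNGAA (8.30%), the NF-kB site GGGACTTTC (0.353%), the C/EBP site TTGCNNAA (10.8%), the AP-1 site TGANTCA (7.81%) and the TATA box TATAAA (13.6%). None of them occurs in the stretches printed or in the windows of Odc1 and Sat1. The Ass1 window holds 1 E-box, with the overlapping hypoxia core on both strands, starting 36 bases before the RefSeq start.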

How the data were processed

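The deposited tables hold whole-number counts, made by the authors with the BD Rhapsody WTA pipeline 1.11 (GRCm38, GENCODE M19): RSEC-corrected UMIs per gene and cell, and Sample Tag reads per cell. Both groups shared 1 capture of 20726 putative cells. Cells were kept with at least 10 tag reads, at least 75% of them from Sample Tag 1 or 2, between 150 and 5000 genes, and a mitochondrial share of 20% or less. Likely doublets were scored with Scrublet (scanpy 1.11.5); since its automatic threshold marked 0 cells, the top 942 by score (9.51%) were taken out. Clustering used Seurat 5.3.0 in R 4.3.3 with 2000 variable genes, 30 principal components and 20 neighbors, at resolution 0.5 for classes (named by markers), 0.35 for macrophage states, 0.55 for finer states and 0.05 for dendritic subclusters. The genes of the set, chosen by name, and the pathway genes were left out of the clustering of states and subclusters. Values were computed with Python 3.11.15, numpy 2.4.6, scipy 1.17.1 and pandas 2.3.3, and figures with matplotlib 3.10.9.

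Counts were summed per class, state and group. Intervals are Poisson for sums, Clopper-Pearson for shares and conditional binomial for ratios. Those for ratios were tried on simulated Poisson counts without spread between cells or mice. As that is the model the intervals assume, the trial cannot show how well they hold for these data. A gene counts as measured with at least 100 UMIs, and as differing at 1.5-fold. Similar patterns were sought among genes with at least 500 UMIs. Alternatives were other limits on tags, genes and mitochondrial UMIs, no doublet removal, other scalings including TMM factors (edgeR 4.0.16), thinning, other resolutions and equal weights of states. Equal weights of the 9 finer states were chosen after the values were seen. From the set 2 genes, and a marker, are not reported here. The members and lists were chosen with earlier results of these data known.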

Additional observations from a re-analysis of the deposited data

Results flagged for a closer look

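The log2 ratio between groups differed by 0.98 for Nos2 between dendritic-like and macrophage-like cells, and the dendritic-like ratio was reversed without doublet removal. Between states it differed by 1.63 for Nos2 (states 4 and 1) and by 0.68 for Sat1 (states 5 and 6). These differences were not tested. For state 6 the finer states give no separate value, as most of its cells fell together with state 1 cells. With 1 pool of 5 mice per group and 1 capture, the variation between mice is not known. The pools also differed in depth. The Nos2 shares of dendritic-like and T-like cells were not separated by counting error.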

How the results depend on the processing

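Of 139 values recomputed under other settings for the differences between groups, the Nos2 shares, the pathway counts and the highest state of Nos2, 97 stayed within the counting interval of the value in the text or equal to it, and 42 did not. In 3 of these 42 the sign was reversed, for Nos2 in macrophage-like cells (0.10 and 0.12) and in dendritic-like cells (-0.16). The cause was not tested. No paired analysis was possible because each group is 1 pool.

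Log2 ratios of telmisartan over control in macrophage-like cells moved as follows. With a tag share of at least 90% Sat1 was 0.22. With at most 10% mitochondrial UMIs Sat1 was 0.36. Without doublet removal Odc1 was 0.70. As the mean of UMIs per 10000 relative to all genes, Nos2 was 0.10, Slc7a2 -0.46, Ass1 -0.55, Odc1 0.81 and Sat1 0.37. As UMIs per cell relative to all genes, Nos2 was -0.0198, Odc1 0.80 and Sat1 0.30. With cells thinned to 1000 UMIs Slc7a2 was -0.47, Ass1 -0.77, Odc1 0.84 and Sat1 0.33. Without state 3, the state of lowest depth, Ass1 was -0.76. With the 6 states weighted alike Slc7a2 was -0.43, Ass1 -0.54, Odc1 0.68 and Sat1 0.17. With the 9 finer states weighted alike Nos2 was 0.12, Slc7a2 -0.25, Ass1 -0.33, Odc1 0.53 and Sat1 0.21.

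In dendritic-like cells a tag share of at least 90% gave Odc1 0.82, past 1.5-fold. No doublet removal gave Nos2 -0.16, a reversed sign, and Slc7a2 -0.0548. The mean of UMIs per 10000 relative to all genes gave Slc7a2 -0.92 and Sat1 0.34, and thinning to 1000 UMIs gave Slc7a2 -1.21 and Sat1 0.35.

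The log2 ratio of the highest state over other macrophage-like cells, with both groups together, moved for each gene. With the genes of the set and of the pathway kept in the clustering, and the resolution at 0.4 with 7 states and not 6, Nos2 was 2.82. At a resolution 0.2 higher Nos2 was 2.85, and at 0.2 lower 2.50. Without doublet removal Nos2 was 2.20. In control cells alone Nos2 was 2.51, and in telmisartan cells alone 3.05. Over the same 6 settings the ratio ran from 0.61 to 1.24 for Slc7a2, 0.74 to 1.38 for Ass1, 0.21 to 0.67 for Odc1 and 0.96 to 1.28 for Sat1, and 3, 2, 1 and 2 of the 6 values stayed within the counting interval.

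The share of control and telmisartan macrophage-like cells with a UMI of Nos2 was 19.2% and 17.6% when thinned to 2000 UMIs. Not thinned it was 32.6% and 29.2%. The pathway counts of 2 higher and 0 lower were the same with both alternatives.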

Other observations

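By Sample Tag, 8738 cells were control and 10222 telmisartan, of which 5078 and 4833 were within the quality limits. A larger part of the telmisartan cells was thus left out. Cells over the mitochondrial limit, 2623 control and 4433 telmisartan with medians of 1173 and 1143 UMIs, were among those left out. Their levels, as UMIs per 1000000 with mitochondrial UMIs left out, in control and telmisartan cells were 343 and 203 for Nos2. They were 268 and 198 for Slc7a2, 212 and 148 for Ass1, 486 and 619.8 for Odc1, and 312 and 373 for Sat1.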
